A study of Mus musculus with 2 samples.

Results

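The genes described here are the amino acid transporter families Slc1a, Slc3a, Slc6a, Slc7a, Slc36a, Slc38a and Slc43a, taken as every gene whose symbol begins with one of these prefixes and whose transcript accession was carried by a non-control probe on both arrays. The rule found 60 of the 17176 genes named on the arrays, measured by 87 probes. One of them, Slc7a6os, only bears the name of its neighbour Slc7a6 and is no transporter, so 59 transporter genes with 86 probes are described. Slc38a6, Slc6a16, Slc6a20a and Slc6a21 had no named probe and are not analysed here.

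Helper T cells, which carry CD4, were compared with cytotoxic T cells, which carry CD8. Both were wild-type splenocytes of C57B6 mice obtained by cell sorting, and the labels give no treatment. The sources used here do not give the sort's surface markers, the mice's age or number, or the cells' activation state. Total RNA of each cell type was labelled with Cy3 and hybridised to 1 Agilent mouse expression array, so the 2 cell types have no replicates and their differences have no test.

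Amino acids cross membranes through carrier proteins of the solute carrier (SLC) superfamily. Resting T cells hold few of these carriers at the surface, and T cells that meet antigen raise several of them, among them the glutamine carrier Slc1a5 and the leucine carrier Slc7a5. The latter works only as a dimer with the single-pass heavy chain Slc3a2, the CD98 antigen. Other members sit on lysosomes and report amino acids to the growth kinase complex mTORC1, and others again serve neurotransmitter uptake or reabsorption in kidney and gut.

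Signals are the processed Cy3 brightness of a spot, on a linear scale after background subtraction. Each array was divided by its own 75th percentile of signal (508.4 on the CD4+ and 449.9 on the CD8+ array) before differences were taken, which adds 0.18 to the plain log2 ratio. Differences are log2 values of CD8+ minus CD4+, so a positive one is higher in the CD8+ array. Of 43379 non-control spots, 63.1% on the CD4+ and 58.6% on the CD8+ array were well above background in the scanner software's call. Cd8a had signals of 534.7 on the CD4+ and 49982.1 on the CD8+ array, and Cd4 had 307.4 and 67.1, as the labels have it. Each transporter probe had 1 spot, and the error given with a difference is the scanner software's own error of both spots, which covers neither animals nor hybridisations. Different probes of a gene differed with an SD of 0.23 over 3972 genes, or 0.36 among the dimmest and 0.13 among the brightest when genes are split into 3 equal classes of level. Among the 12 transporters with several probes detected on both arrays, that SD was 0.46. It was set largely by the dim gene Slc36a3, whose probes ranged from -0.95 to 1.05. Levels of different genes are not compared, since each probe has its own affinity. In sorted bulk RNA, fewer cells carrying a transcript and less transcript per cell cannot be told apart.

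The promoter windows of 3 genes are shown because Slc6a13 and Slc6a12 lie next to each other and were both higher in the CD4+ array, while Slc6a19 was detected in the CD8+ array alone. Each gives the 250 bases before the most upstream start in the RefSeq promoter table of GRCm38.p6, 5′ to 3′ on the gene's strand. Capitals mark the letters TGTGGT, the core bound by RUNX factors, read on either strand. The window of Slc6a19 lies inside the span of the gene's RefSeq record, which also holds a longer model.
Slc6a19, chr13:73692637-73692886, minus strand: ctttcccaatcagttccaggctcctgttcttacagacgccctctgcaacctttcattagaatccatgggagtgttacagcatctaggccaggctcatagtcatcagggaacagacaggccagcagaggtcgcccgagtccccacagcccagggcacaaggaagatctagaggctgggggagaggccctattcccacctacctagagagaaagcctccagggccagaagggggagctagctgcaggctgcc
Slc6a13, chr6:121300038-121300287, plus strand: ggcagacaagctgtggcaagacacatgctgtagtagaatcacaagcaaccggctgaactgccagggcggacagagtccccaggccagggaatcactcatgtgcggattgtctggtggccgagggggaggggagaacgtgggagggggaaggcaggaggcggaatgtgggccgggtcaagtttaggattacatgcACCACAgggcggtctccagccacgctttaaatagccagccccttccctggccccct
Slc6a12, chr6:121342324-121342573, plus strand: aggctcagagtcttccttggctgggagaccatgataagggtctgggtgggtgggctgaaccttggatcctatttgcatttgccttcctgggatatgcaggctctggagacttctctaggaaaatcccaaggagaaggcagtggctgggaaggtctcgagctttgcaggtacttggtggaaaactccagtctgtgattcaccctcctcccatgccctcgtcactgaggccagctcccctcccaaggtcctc

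The RUNX letters occurred once in the Slc6a13 window, 56 bases before the start, and in neither of the other windows. Of 59 transporter genes, 41 had a window in the table, and 4 of them held these letters (9.76%) against 14.2% of 27025 gene windows of the same length. The E-box CACGTG, which MYC and related factors bind, was in 8 of the 41 (19.5%) against 6.04% of all windows. Of those 8 genes, Slc36a1, Slc38a7 and Slc43a1 were above background on both arrays, Slc38a5 and Slc7a14 on the CD4+ array alone, and Slc1a6, Slc1a7 and Slc6a3 on neither. The ATF4-type element TGATGNAA was in the windows of Slc7a7 and Slc7a11 (4.88% against 3.53%) and the TATA box TATAAA in 4 (9.76% against 13.0%). Both strands were read in each case, none of the motifs contains another, and a match of letters is no evidence of binding.

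Of the 59 transporters, the CD4+ array detected 40 (67.8%) and the CD8+ array 32 (54.2%) well above background, against 75% and 70.7% of all named genes. Detected on both arrays were 30 transporters (50.8%, against 69.6% of all named genes) and on neither 17 (28.8% against 24%). The CD4+ array alone detected 10 (16.9% against 5.35%) and the CD8+ array alone 2 (3.39% against 1.04%). All of these but Slc6a19, Slc7a10 and Slc6a12 had signals of 34.7 or less where detected. The lowest scaled level well above background was -5.3 on the CD4+ and -4.94 on the CD8+ array. Detection thus reached lower levels on the CD4+ array. A gene of 1 array has only a lower bound to its difference, computed against the other array's lowest level that counted as well above background, or against the undetected spot's own level where that is higher (Slc6a14 and Slc6a20b). In the families, both Slc3a genes and all 3 Slc43a genes were detected on both arrays, as were 7 of 10 Slc38a, 7 of 15 Slc7a, 3 of 4 Slc36a, 3 of 7 Slc1a and 5 of 18 Slc6a genes.

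**Figure D1:**
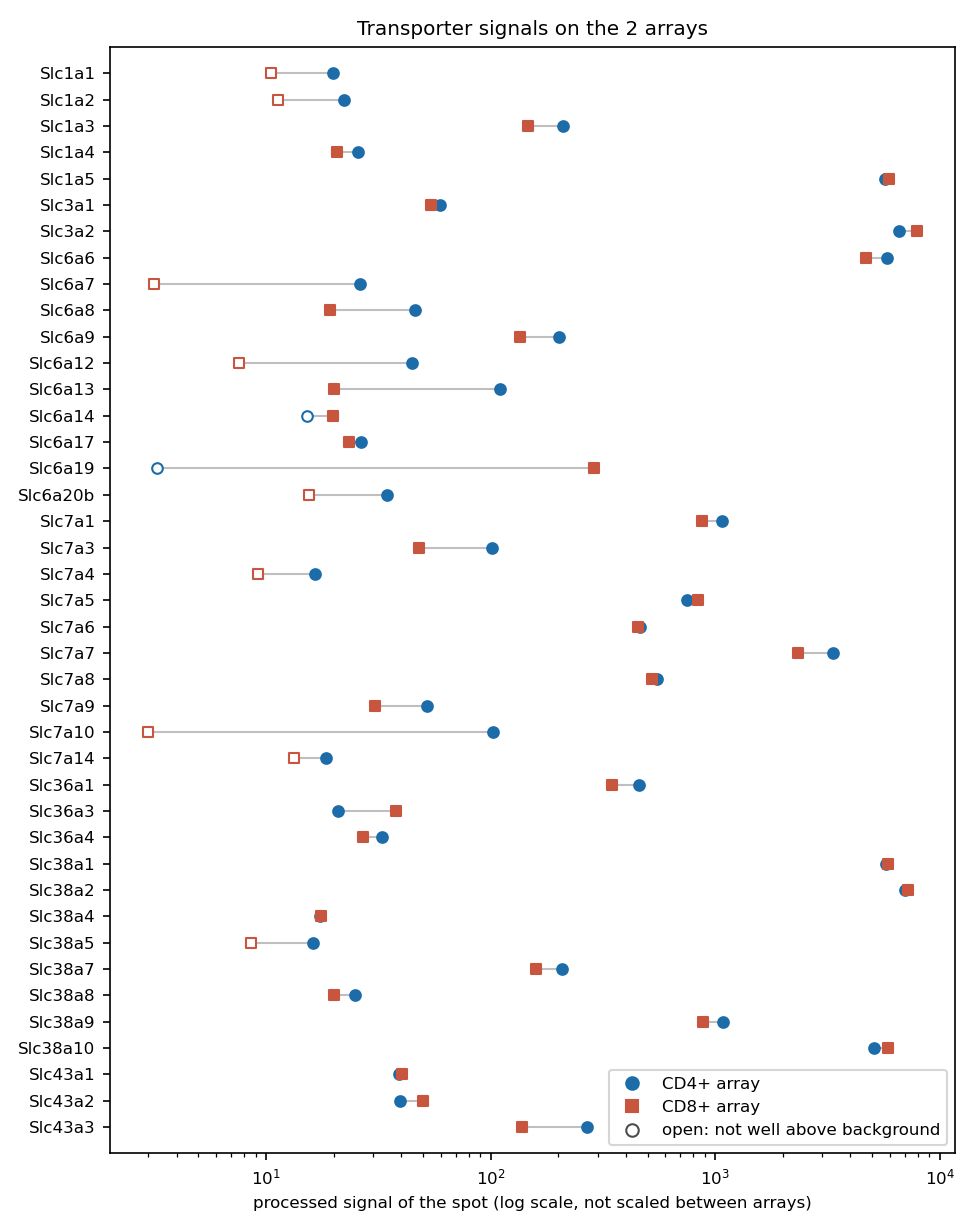
Processed signal (log axis, not scaled between arrays) of 41 transporter genes well above background on at least 1 array, with CD4+ array as circles, CD8+ array as squares and open symbols for spots not well above background; only the 2 symbols of a row may be compared. Slc6a19 (3.26 and 290.0) and Slc7a10 (103.1 and 3.0) span the widest gaps, in opposite directions.

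Among the 30 transporters detected on both arrays, 14 were higher in the CD8+ and 16 in the CD4+ array, with a median difference of -0.11 against 0.02 over all 11957 genes detected on both. Differences of 23 of the 30 (76.7%) were under 0.5 in size, as were 82.3% of all genes. A difference of 2-fold or more was found for 3 transporters, where 5.77% of all genes had one. Slc36a3 had it towards the CD8+ array (3.33% of the 30, against 1.94% of all genes), and Slc6a13 and Slc6a8 towards the CD4+ array (6.67% against 3.83%). With so few genes these shares are near the background. Scaling the arrays to their medians, which moves the median of all genes from 0.02 to 0.17, gave 19 and 11 transporters, and the median of the transporters became 0.03.

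**Figure D2:**
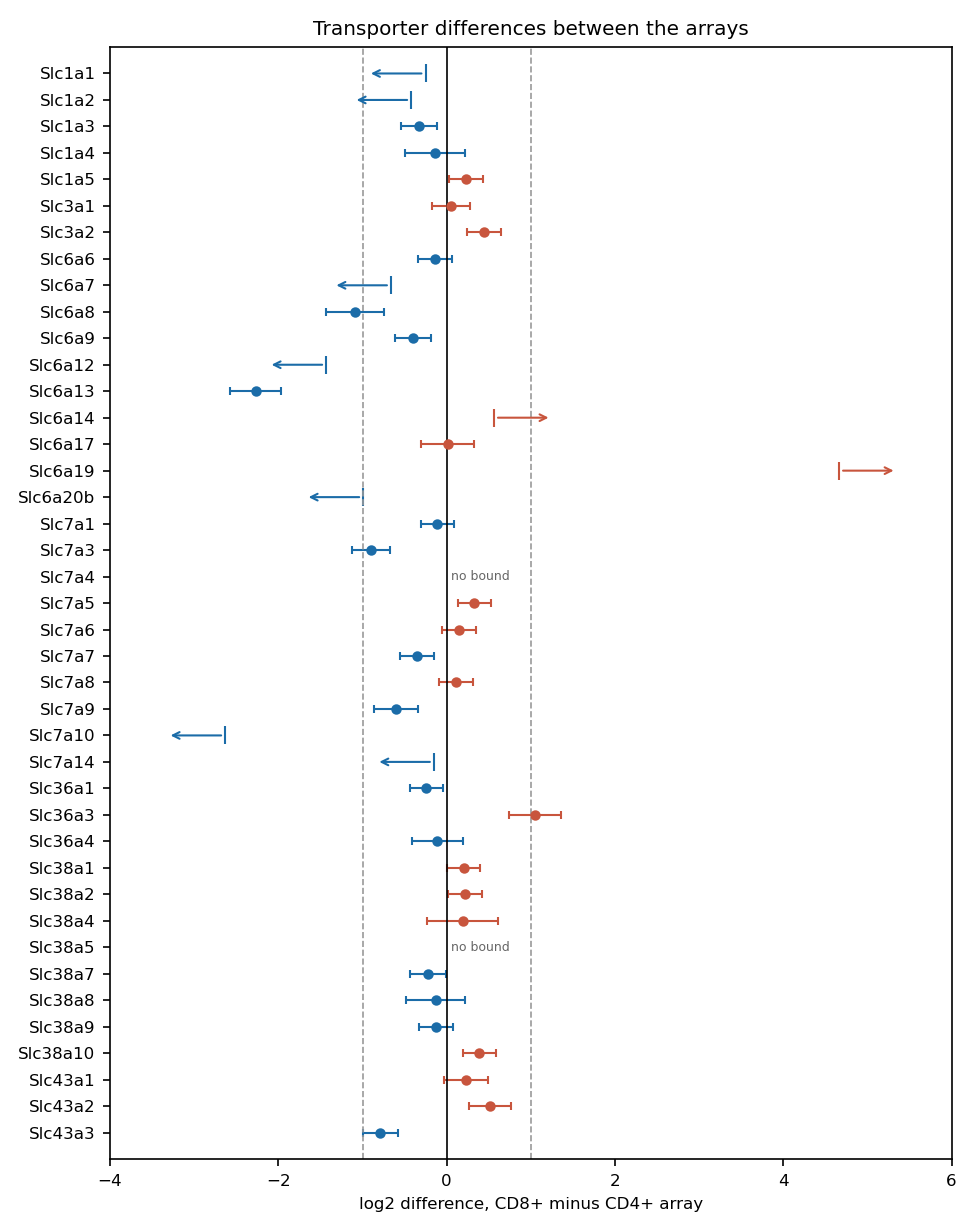
Log2 difference (CD8+ minus CD4+ array) of the same 41 genes by family, with bars for the scanner software's error of the 2 spots; arrows start at the lower bound of a gene detected on 1 array, and dashed lines mark 2-fold. Most points sit within the dashed lines. Slc6a19 (bound 4.66), Slc7a10 (bound -2.63), Slc6a13 (-2.27), Slc6a12 (bound -1.43), Slc6a8 (-1.09) and Slc36a3 (1.05) start outside them.

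The carriers best known from T cell metabolism were nearly level between the arrays. Slc1a5, which takes up glutamine and other neutral amino acids, had signals of 5730.0 on the CD4+ and 5936.5 on the CD8+ array, a difference of 0.23 ± 0.20 (software error, 1 spot). The sodium-coupled glutamine carrier Slc38a1 had 5781.7 and 5888.3, a difference of 0.20 ± 0.20, and its second probe gave 0.25. Slc38a2, a carrier of the same kind that cells raise when amino acids are short, had 7035.4 and 7243.8 (0.22 ± 0.20), with 0.26 by its second probe. These 3 differences are about as large as their software error and as the SD between probes over all genes. They are smaller than that SD among transporters (0.46, set largely by the dim gene Slc36a3) and larger than among bright genes (0.13). That of Slc1a5 was -0.01 after normexp, a model-based background correction. Slc38a5, another glutamine carrier, had 16.2 on the CD4+ array and 8.56, not well above background, on the CD8+ array, with no bound. Slc38a3 was above background on neither array.

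Slc3a2, the CD98 heavy chain, was higher in the CD8+ array by both of its probes. Its signals were 6615.6 on the CD4+ and 7915.0 on the CD8+ array, a difference of 0.44 ± 0.20, and its second probe, with 105.5 and 143.2, gave 0.62 ± 0.21. Slc7a5, the light chain LAT1 that exchanges leucine and other large neutral amino acids, had 752.5 and 839.6, a difference of 0.33 ± 0.20. Both parts of this dimer thus had the higher value in the CD8+ array, by 1.35-fold and 1.26-fold.

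The other light chains that pair with Slc3a2 did not lie on one side. Slc7a8 (LAT2) had 551.4 and 525.3 (0.11 ± 0.20), and Slc7a6, which exchanges cationic for neutral amino acids, had 464.3 and 454.6 (0.15 ± 0.20). Slc7a7, its close relative known from macrophages and epithelia, had 3363.6 and 2342.0, a difference of -0.35 ± 0.20 and so 1.27-fold higher in the CD4+ array. Slc7a11, the cystine and glutamate exchanger of the same group, was not above background on either array by any of its 3 probes. Slc7a10, the carrier Asc-1 of small neutral amino acids, is given with the genes detected on 1 array.

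Slc43a1 and Slc43a2 carry the same large neutral amino acids without a heavy chain. Slc43a1 (LAT3) had 39.1 and 40.5 (0.23 ± 0.26), and Slc43a2 (LAT4) had 39.6 and 50.3 (0.52 ± 0.25). Slc43a3, a family member known as a carrier of purine nucleobases rather than amino acids, had 269.5 and 137.9, which made it 1.73-fold higher in the CD4+ array (-0.79 ± 0.21). It stood on the other side from Slc43a2, while the difference of Slc43a1 was smaller than its software error.

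Among cationic amino acid carriers, Slc7a1, the main arginine carrier of many cells, had 1067.5 on the CD4+ and 873.1 on the CD8+ array, a difference of -0.11 ± 0.20. Its second probe, with 27.6 and 29.8, gave 0.29 ± 0.30, so its direction was not settled. Slc7a3, the family member known mainly from brain, had 101.6 and 48.2 and was 1.86-fold higher in the CD4+ array (-0.90 ± 0.23). Slc7a2, the arginine carrier of activated macrophages, was not above background on either array. Slc3a1 and Slc7a9, which together form the kidney carrier of cystine and basic amino acids, had 59.6 and 54.4 (0.05 ± 0.23) and 52.4 and 30.7 (-0.60 ± 0.26). The difference of Slc7a9 was 0.02 after normexp.

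The glutamate carriers Slc1a1, Slc1a2 and Slc1a3 were each higher in the CD4+ array by their main probes. Slc1a3 (GLAST), the only one of them detected on both arrays, had 210.0 and 147.6, a difference of -0.33 ± 0.21. Slc1a1 had 19.8 and 10.5, and Slc1a2 had 22.2 and 11.3, neither called well above background in the CD8+ array, with bounds of at least 1.19-fold and at least 1.34-fold. Slc1a4, a carrier of alanine, serine and cysteine, had 25.7 and 20.7 (-0.14 ± 0.36), or 0.01 with median scaling. Slc1a6 and Slc1a7 were detected on neither array.

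The lysosomal carriers differed little. Slc38a9, the arginine-responsive carrier that signals to mTORC1, had 1087.3 on the CD4+ and 882.3 on the CD8+ array, a difference of -0.13 ± 0.20, and its second probe gave -0.15. Slc38a7, which exports glutamine and asparagine from lysosomes, had 208.9 and 158.6 (-0.22 ± 0.21). Slc36a1, a proton-coupled carrier found on lysosomes, had 460.5 and 345.8 (-0.24 ± 0.20), and Slc36a4 had 33.0 and 27.0 (-0.11 ± 0.30). All 4 were higher in the CD4+ array by their main probes at the main scaling. The second probe of Slc36a4 gave 0.12 ± 0.40, so the direction of Slc36a4 was not settled. With median scaling, Slc38a9 and Slc36a4 were higher in the CD8+ array, by 0.02 and 0.03.

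Slc36a3, the one transporter of both arrays past 2-fold towards CD8+, had probes that went opposite ways. The probe that stands for it, the brightest on average, had 20.9 on the CD4+ and 38.1 on the CD8+ array, a difference of 1.05 ± 0.31. A second probe gave 0.83 ± 0.35, and the remaining one, with 38.5 and 17.7, gave -0.95 ± 0.34. With the mean over its probes the difference was 0.31, with normexp 0.40 and with the authors' series values, which are not background-subtracted, -0.26. The direction of Slc36a3 is therefore not settled by these arrays.

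**Figure D3:**
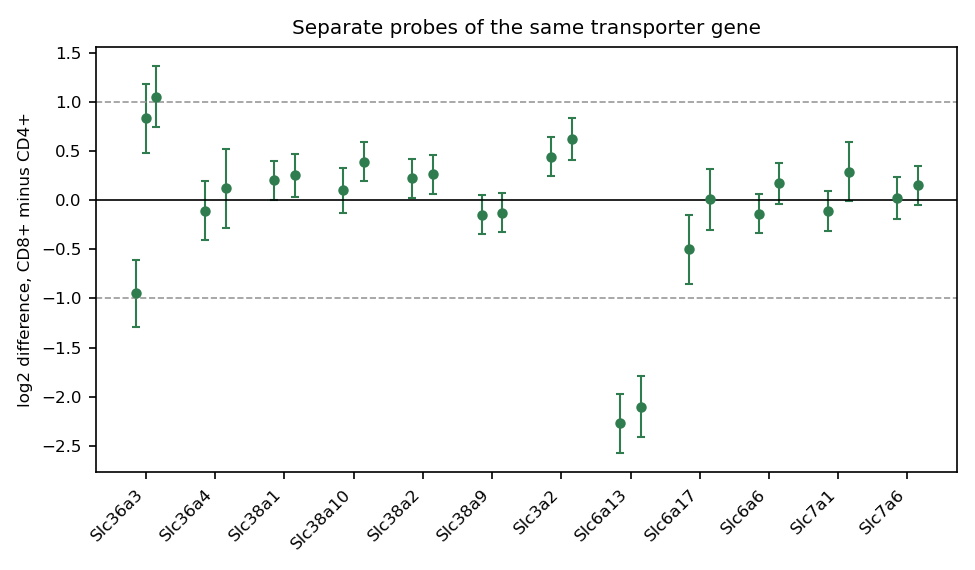
Log2 difference (CD8+ minus CD4+ array) of each probe above background on both arrays, for the 12 transporter genes with at least 2 such probes; bars are the scanner software's error and dashed lines mark 2-fold. The probes of Slc6a13 lie together at -2.27 and -2.10, while those of Slc36a3 spread from -0.95 to 1.05.

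Of the 12 transporters with several probes detected on both arrays, 7 had probes of the same sign and 5 had probes of opposite sign. The 5 were Slc36a3, Slc36a4, Slc6a17, Slc6a6 and Slc7a1. Apart from Slc36a3, their probes differed by 0.51 at most.

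The Slc6a family, which holds the sodium and chloride coupled carriers of neurotransmitters, osmolytes and amino acids, had 18 members on the arrays. Of its 5 genes detected on both arrays, 4 had the higher value in CD4+ cells (5 with the percentile over detected probes), and the median was -0.40 (-0.08 with normexp). Slc6a13 (GAT2), a carrier of GABA and taurine known from liver and kidney, had 110.1 on the CD4+ and 20.2 on the CD8+ array. Its second probe had 100.2 and 20.7, and the differences of -2.27 ± 0.30 and -2.10 ± 0.31 made it 4.83-fold higher in the CD4+ array by the main probe. The difference was 4.55-fold with the mean over probes, 2.23-fold with the series values and 1.93-fold with normexp.

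Slc6a12 (BGT1), the betaine and GABA carrier encoded next to Slc6a13 on chromosome 6, was detected in the CD4+ array alone. Its signals were 44.8 and 7.59, a bound of at least 2.7-fold towards CD4+ (1.31-fold with normexp). These neighbouring genes, whose promoter windows are printed above, thus lay on the same side. The GABA carrier Slc6a11 was detected on neither array.

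Slc6a8, the creatine carrier, had 46.2 on the CD4+ and 19.2 on the CD8+ array and so lay 2.13-fold towards CD4+ (-1.09 ± 0.34). Normexp left 1.05-fold and the series values 1.17-fold, at signals where both settings shrink differences by construction. Scaling to the medians gave 1.93-fold. Slc6a9, the glycine carrier GlyT1, had 202.2 and 135.2 (-0.40 ± 0.21). Slc6a6, the taurine carrier, had 5844.5 and 4685.0 (-0.14 ± 0.20), and its second probe gave 0.17 ± 0.21, so its direction was not settled.

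Slc6a19 (B0AT1), the main neutral amino acid carrier of the kidney and gut brush border, had the largest bound of all 178 genes detected in the CD8+ array alone. Its signal was 3.26 on the CD4+ array, not above background, and 290.0 on the CD8+ array, which puts it at least 25.4-fold higher there. Before background subtraction, the median pixel of the spot was 40.5 against a local background of 46.0 on the CD4+ array and 322 against 49.5 on the CD8+ array. The bound was 7.61-fold with the series values and 5.84-fold with normexp. Of all named genes, 0.314% were detected in the CD8+ array alone with a bound of 2-fold or more, and Slc6a19 was the only such transporter.

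The Slc6a19 value rests on 1 probe with 1 spot on each array. The 14 closest spots around it had differences from -2.15 to 1.39, and the brightest of them had 3601.7 on the CD4+ and 4307.9 on the CD8+ array. Slc6a18, the next gene on chromosome 13 and a kidney carrier of the same kind, was not above background on either array by either of its probes. Collectrin (Cltrn), which carries Slc6a19 to the surface in kidney, was not above background, with signals of 2.68 and 3.02. Of 10 kidney and intestinal genes, a list chosen after these values were seen, 5 were detected on neither array, among them Umod, Slc34a1, Fabp2 and Lct, and the median of the other 5 was -0.09. Vil1, the brush border protein villin, had 23.9 and 72.9 (1.79) and Cdh16 differed by 0.72, while Epcam (-0.80), Aqp2 (-0.21) and Lrp2 (-0.09) were higher in the CD4+ array. The summed scaled signal of that list was 0.628 on the CD4+ and 0.608 on the CD8+ array. Epcam, with signals of 139.1 and 70.8, was its brightest gene on the CD4+ array, and Vil1 on the CD8+ array. These genes went opposite ways, so near-equal sums do not mean that the genes were level.

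Slc7a10 was detected in the CD4+ array alone. Its signals were 103.1 on the CD4+ and 3.0 on the CD8+ array, a bound of at least 6.2-fold, which ranked it at 18 among the 919 genes detected there alone. The bound was 2.61-fold with the series values and 2.25-fold with normexp. It too rests on 1 spot per array, whose 14 closest spots had differences from -0.48 to 2.11. With Slc6a12 it made 2 transporters of the CD4+ array alone with a bound of 2-fold, a class that held 0.879% of all named genes.

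The remaining transporters of 1 array had signals of 34.7 or less where they were detected. Slc6a20b, of the imino acid carriers, had 34.7 and 15.5, with a bound of 1.98-fold towards CD4+. Slc6a7, the proline carrier, had 26.2 and 3.16, with a bound of 1.58-fold, while its second probe was not above background. Slc7a14 had 18.5 and 13.3 with a bound of 1.11-fold, and Slc7a4 had 16.5 and 9.21 with none. On the CD8+ array alone, besides Slc6a19, only Slc6a14, a broad carrier of neutral and basic amino acids, was detected, with 15.3 and 19.9 and a bound of 1.48-fold.

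Among transporters of both arrays not yet named, Slc38a10 had 5100.0 and 5900.0 (0.39 ± 0.20), with 0.10 ± 0.23 by its second probe. Slc38a4, Slc38a8 and Slc6a17 had signals between 17.4 and 26.4, with differences of 0.19, -0.13 and 0.01. Detected on neither array, besides those named above, were the monoamine carriers Slc6a2, Slc6a3 and Slc6a4, the glycine carrier Slc6a5, and Slc6a15, Slc7a12, Slc7a13, Slc7a15, Slc36a2 and Slc38a11. For these a difference could not be measured at this signal.

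**Figure D4:**
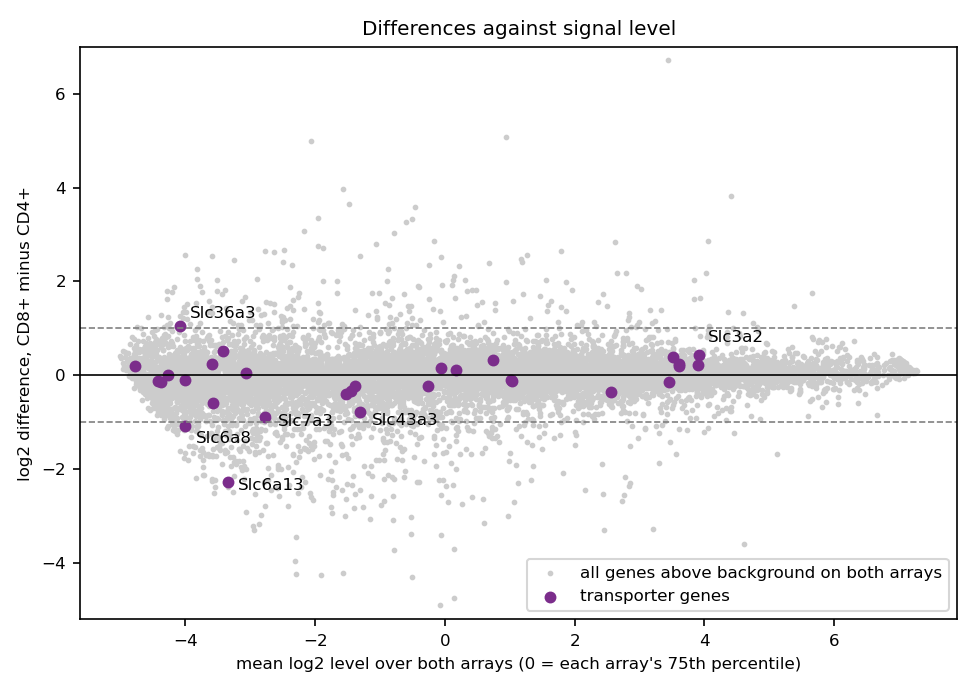
Log2 difference (CD8+ minus CD4+) against mean log2 level for the 11957 genes detected on both arrays (grey) and the 30 transporters among them (purple); dashed lines mark 2-fold. The 7 transporters in the brightest class of levels lie between -0.35 and 0.44, and those beyond 2-fold are in the dimmest class.

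Dim genes spread more widely than bright ones. Among the brightest of 3 equal classes of all genes, where differences had an SD of 0.36, 7 transporters lay between -0.35 and 0.44, and 2 of them were higher in the CD4+ array, as were 41.2% of all genes of that class. Among the dimmest, where the SD was 0.66, 17 transporters ranged from -2.27 to 1.05, and 11 of them were higher in the CD4+ array, against 54.9% of all genes there.

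Other genes of amino acid handling were read from lists chosen with earlier results of these arrays known. Of all genes detected on both arrays, 1.94% passed 2-fold towards CD8+ and 3.83% towards CD4+. The counts of these short lists are to be read beside those shares. Of 31 named genes that sense amino acids upstream of mTORC1, 29 were detected on both arrays, 1 passed 2-fold towards CD4+ and 0 towards CD8+, and the median was 0.06. That gene was Castor1, the cytosolic arginine sensor, with 104.6 and 39.6 (2.34-fold, 1.58-fold with normexp). Among 20 genes of the amino acid starvation response, 18 were detected on both arrays, with a median of 0.03. Trib3, a pseudokinase induced by ATF4, had 333.7 and 86.9 and was 3.4-fold higher in CD4+ cells, or 2.34-fold with normexp and 2.08-fold with the mean over its probes. Asns, the asparagine synthetase, had 306.1 and 169.0 (-0.68 ± 0.21), while Atf4 itself differed by 0.11 ± 0.20. Asns and Atf4 were picked after their values were seen. The 18 genes did not lie on one side, with 10 higher in the CD8+ and 8 in the CD4+ array (14 and 4 with median scaling).

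Of 28 amino acid metabolism enzymes detected on both arrays, 1 passed 2-fold towards CD8+ and 2 towards CD4+. Of all genes, 1.94% and 3.83% did so. The median of the enzymes was 0.14. Shmt2, the mitochondrial serine hydroxymethyltransferase, had 1773.8 on the CD4+ and 3271.6 on the CD8+ array (2.08-fold, 2.0-fold with normexp). Ass1, which makes argininosuccinate on the way to arginine, had 3095.0 and 1187.0 (2.31-fold higher in the CD4+ array), and Prodh, proline dehydrogenase, had 196.3 and 63.4 (2.74-fold, 1.81-fold with normexp). The arginine carrier Slc7a1, given above, differed by -0.11.

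Of 13 cysteine and glutathione genes detected on both arrays, only Ggt1, the surface enzyme that cleaves glutathione, passed 2-fold at the main setting, with 103.8 on the CD4+ and 747.7 on the CD8+ array (8.14-fold, 5.31-fold with normexp). Median scaling and quantile normalization gave 2 genes towards CD8+, normexp and the series values 1 more towards CD4+. The list's median was -0.09, and 1.94% of all genes passed 2-fold towards CD8+ at the main setting. Of 9 regulators of surface transporters detected on both arrays, 7 were higher in the CD8+ array, also under each scaling tried, where 53.7% of all genes were, and the median was 0.43. Nedd4, a ubiquitin ligase that removes carriers from the membrane, had 320.3 and 891.6 (3.15-fold higher in the CD8+ array), and its relative Nedd4l had 46.9 and 86.7 (2.09-fold, 1.53-fold with normexp). Myc, a transcription factor that raises carrier genes in activated T cells, differed by 0.43. Its software error of 0.06 is not comparable with that of probes with 1 spot, since the error falls with the number of spots. It too covers neither animals nor hybridisations. Of 16 amino acid carriers outside these families, none was 2-fold apart, where 5.77% of all genes were. Their largest differences were those of Slc15a3 (-0.60), Slc25a22 (0.58) and Slc15a2 (0.45).

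**Figure D5:**
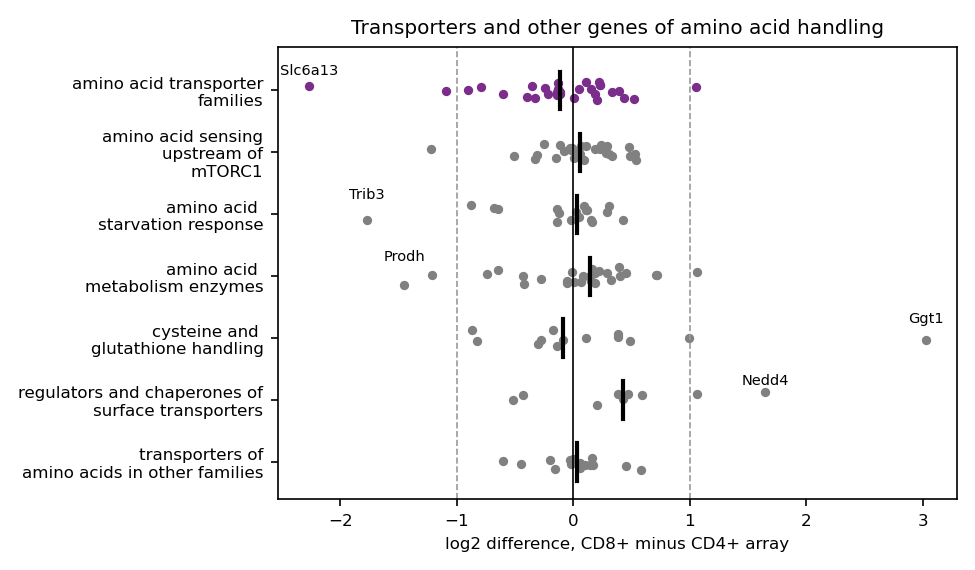
Log2 difference (CD8+ minus CD4+) of each gene detected on both arrays, for the transporter families (purple) and 6 lists of amino acid handling (grey); black bars are medians and dashed lines mark 2-fold. Medians run from -0.11 for the transporters to 0.43 for the regulators, and Ggt1 stands furthest to the right.

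Markers of other cell types were present on both arrays and are given as values beside these results. All 7 B cell markers were detected on both, with a summed scaled signal of 19.1 on the CD4+ and 29.7 on the CD8+ array. Plasma cell markers summed to 5.52 and 3.24 (6 of 6 and 5 of 6 detected), dendritic cell markers to 46.7 and 39.4 (7 of 7 on each) and monocyte and macrophage markers to 59.2 and 50.1 (6 of 6 on each). Most of the dendritic cell sums came from Bst2, with signals of 20694.0 and 15527.9. Most of the monocyte and macrophage sums came from Vcam1 (14916.3 and 12282.8) and Adgre1 (9273.5 and 5907.9). Single genes of these lists lay further apart than the sums. Towards CD4+ these were Cd209a (9.25-fold), Siglech (6.28-fold), Ccr2 (6.41-fold), Prdm1 (4.87-fold), Lyz2 (4.49-fold) and Irf4 (3.09-fold), and towards CD8+ Cd207 (12-fold). NK cell markers summed to 2.03 and 3.20 (5 of 6 on each, without Klre1), or to 1.81 and 0.98 without Eomes, which had 112.7 and 999.7. Among them Ncr1 (4.4-fold) and Klrb1c (5.07-fold) were higher in the CD4+ array, and the median was -0.22. Granulocyte markers summed to 2.49 and 2.92 (4 of 5, without Elane), platelet markers to 0.557 and 0.839 (4 of 5 and 5 of 5), erythroid markers to 20.5 and 14.8 (5 of 6 on each) and mast cell markers to 0.307 and 0.208 (2 of 4 and 1 of 4). T cell markers summed to 304.0 and 452.8, with 8 of 8 detected on each, or to 302.3 and 341.6 without Cd4 and Cd8a. Of these markers 6 were higher in the CD8+ array and 2, Cd4 and Trat1 (5.47-fold), in the CD4+ array. The part of these cells in the transporter differences was not tested.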

How the data were processed

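Total RNA of sorted splenic CD4+ and CD8+ T cells was amplified linearly and labelled with Cy3 (per the labels' protocols), and 1 array was run per cell type. The deposited files hold spot intensity on a linear scale from Feature Extraction 10.1.1.1, per the file headers, while the submitters' processing notes name version 9.1. The processed intensity is background-subtracted and detrended but not scaled between arrays. The authors' deposited series intensity is the median pixel brightness, equal to it at 45018 spots per array.

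From these, log2 processed signal was computed and the 75th percentile of an array's non-control spots subtracted. Outlier spots (99 and 92) were left out and saturated spots kept, and no transporter probe was saturated. A gene took its brightest probe on average, with preference for one above background on both arrays. Probes were named through transcript accessions in a RefSeq table of GRCm38.p6, used for names, gene order and the promoter windows, because the array design names mm9; 60.3% of probes matched. Values of 1 transporter and a few other genes are not reported here, though the counts include them. The members and lists were chosen with earlier results of these data known. Every other transporter gene is named, and of the other lists the genes at least 2-fold apart, with a few more chosen after their values were seen. Bounds used the lowest signal well above background (12.9 on the CD4+ and 14.7 on the CD8+ array) or the undetected spot's own signal, whichever was higher. A single array per cell type allows no p-value, and precision is limited by the number of arrays.

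Tried as alternatives were normexp (offset 50, on median signals because the files hold no mean spot signal), other scalings, quantile normalization, the series values, other filters and probe rules, and a 4-fold threshold. In a test on simulated data of the CD8+ against CD4+ comparison, with 12880 genes, the 2-fold rule called 50 of 50 genes raised by 1.5 (log2) and 1 of 50 raised by 0.5. Both simulated arrays were the CD4+ levels with noise of SD 0.16, the value between spots of a probe, and with the CD4+ detection calls. Neither disagreement between probes nor loss of detection was simulated, so the test does not show how reliable 2-fold calls of dim genes are. The software was R 4.3.3 with limma 3.58.1, and Python 3.11.15.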

Additional observations from a re-analysis of the deposited data

How the results depend on the processing

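The count of transporters past 2-fold towards CD8+, 1 as reported, was 0 after normexp, for the series values, for brighter probes alone, with the mean over probes and at a 4-fold threshold, and 2 with no filter on dim probes. The count for the CD4+ array, 2 as reported, was 0 with normexp and with brighter probes alone, 1 with median scaling, quantile normalization, the series values and a 4-fold threshold, and 7 with no filter. Brighter probes alone kept 13 transporters, with a median of 0.15, and no filter took in all 59. The median of -0.11 over 30 transporters moved to 0.01 with normexp or the mean over probes, 0.03 with median scaling and 0.09 after quantile normalization, so its sign is not settled. Slc36a3 turned to -0.26 with the series values. The brightest probe was chosen anew in that setting, and a probe of Slc36a3 gave -0.95 at the main setting. The cause of the turn was not tested. Over single transporters, 14 of 36 moved by more than the SD between probes of all genes (0.23) with normexp and 13 of 36 with the series values, beside Slc36a3. Median scaling and the percentile over detected probes shift every gene by the same amount, which is less than this SD. They could therefore move no transporter that far. No transporter probe was saturated, so leaving out saturated probes could change none. Keeping outlier spots moved none by that much. Slc6a13 and Slc6a8 were higher in the CD4+ array under each setting that gave them a value; the direction of genes detected on 1 array is fixed by that detection. Transporters with signals near 15 are limited by signal over background. No paired analysis was possible because each cell type has 1 array.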
